A study of Rattus norvegicus with 30 samples.

Results

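Brain RNA was compared between 10 rats labelled HIP, which express human amylin, and 10 rats labelled AKO, which lack amylin. They are 20 of the 30 rats of the series and were chosen by their genotype label. All are Sprague Dawley males on a normal diet. HIP rats carry a human amylin transgene that is expressed in pancreatic β-cells, beside their own rat amylin gene. AKO rats carry a deletion of the amylin gene and no transgene. The other 10 rats, wild type (WT), have rat amylin alone and are littermates of HIP rats. HIP and WT rats were 15 to 16 months old. The same age is given for 3 AKO males used as negative controls, and whether it holds for the 10 sequenced AKO rats is not stated. AKO rats have KAH (4 rats) or AKO (6 rats) in their names and HIP and WT rats have RT, so that genotype and whatever these names stand for cannot be told apart in HIP vs. AKO. Each sample is a separate animal per the labels.

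Amylin is a peptide hormone that pancreatic β-cells secrete together with insulin. It acts in the brain on calcitonin receptors joined to receptor activity-modifying proteins (RAMPs), slows gastric emptying and promotes satiation. Human amylin forms amyloid whereas rat amylin does not, which is why rats that express the human peptide are used as a model of its deposition. The comparison of HIP with AKO rats sets animals with human and rat amylin against animals with neither.

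The measured values were normalized read counts for 17134 genes. Per HIP rat, an estimated 13.7 to 16.7 M reads lay on genes (M, mega), and per AKO rat 12.9 to 23.6 M. The tissue is labelled frontal cortex, whereas the study's text names cerebral cortex and hippocampus. Of 15 markers of neocortical neurons and layers, 14 were measured, and their mean log2 level was 9.92 to 10.48 in HIP rats and 9.90 to 10.40 in AKO rats. Markers of the striatum were between 7.06 and 9.20 in HIP rats and between 7.16 and 9.78 in AKO rats, and those of the olfactory bulb between 4.65 and 9.42 and between 4.97 and 10.13, so that markers of neighbouring regions varied between rats of both groups. In HIP rat 10RT46, Tph1, an enzyme of serotonin and melatonin synthesis that marks the pineal gland, had 19081 normalized counts, against a highest value of 13.2 in AKO rats. In HIP rat 12RT23, Gabra6, a GABA receptor subunit of cerebellar granule cells, had 1564, against a highest value of 16.5 in AKO rats. Each HIP vs. AKO result below was also computed without both libraries (8 HIP vs. 10 AKO rats). The median log2 difference HIP minus AKO was −0.41 over 14 striatum genes, −0.49 over 8 olfactory bulb genes and −0.71 over 3 blood genes. It was 0.07 for the hippocampus and 0.01 for the thalamus. Without both libraries the medians for striatum, bulb and blood were −0.30, −0.31 and −0.86. Whether dissection or blood content had a part in the results was not tested. Tissue of this kind does not separate fewer cells of a type from less RNA per cell. Iapp, the gene that encodes amylin and is deleted in AKO rats, is not analysed here, so the knockout itself was not checked in these libraries.

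Averaged over the 20 rats, 17092 genes reached a normalized count of 1 and were tested, and 29 (0.17%) passed an adjusted p-value of 0.05 (limma on log2(normalized count + 1), two-sided, Benjamini-Hochberg adjustment over all tested genes). Among them, 12 genes (0.0702%) were higher and 17 (0.0995%) were lower in HIP rats. Before adjustment, 2179 genes (12.7%) had a p-value under 0.05. The genes higher in HIP rats included 3 neighbouring protocadherin genes (Pcdhb5, Pcdhb6 and Pcdhb9), the aldo-keto reductase Akr1b10 and the ribosomal protein paralog Rpl39l. The genes lower in HIP rats included the secreted iron-carrier protein Lcn2, the growth factor binding protein Igfbp6, the collagen chain Col6a1 and the antigen-loading subunit RT1-DMa. Of the 29 genes, 18 differed by at least 2-fold. One of the 17092 genes (0.00585%), Lcn2, had ranges that did not overlap between the 10 HIP and the 10 AKO rats. Without the 2 libraries with Tph1 or Gabra6 above 100, 44 genes (0.258%) had an adjusted p-value under 0.05 (limma), 16 higher (0.094%) and 28 lower (0.164%), with 27 of them among the 29. With 1 rat left out, the number was 17 to 70, highest without HIP rat 10RT46 (70) and AKO rat 4KAH27 (58) and 17 to 19 without any 1 of HIP rats 10RT41, 10RT42, 10RT52, 10RT53 and 12RT23 and AKO rats 6AKO52, 7AKO19 and 7AKO28, and with sample-quality weights it was 1143. Before adjustment, 7.24% of the genes were higher and 7.81% lower in the fit without the 2 libraries.

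**Figure D1:**
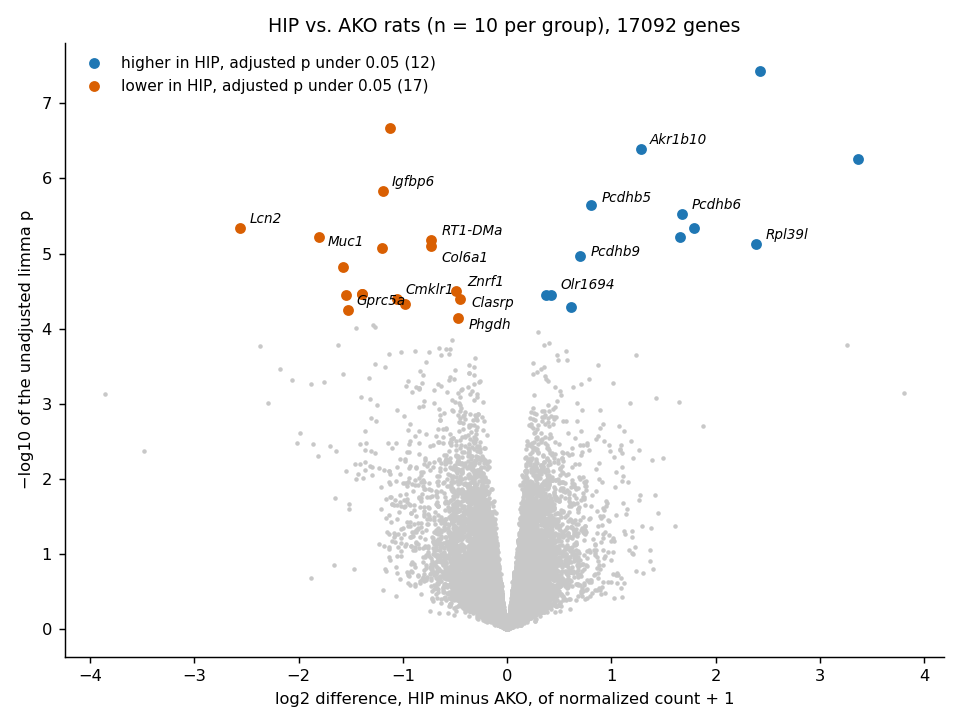
Each point is 1 of 17092 genes, with the log2 difference HIP minus AKO of the normalized count + 1 on the x axis and −log10 of the unadjusted limma p on the y axis. The 12 genes higher and 17 genes lower in HIP rats with an adjusted p under 0.05 are coloured, and those with a symbol are named.

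Clustered protocadherin beta genes encode cell adhesion molecules, and single neurons are known to express different sets of them, which gives the cells distinct surface identities. Of the 14 members tested, 3 were higher in HIP rats with an adjusted p under 0.05 and 11 did not pass the test. The 3 lie close together, Pcdhb5 directly beside Pcdhb6 among the tested genes and Pcdhb9 3 places further. Pcdhb8 lies between Pcdhb6 and Pcdhb9, and its log2 difference, below 0, did not pass the test. Stretches of 30 bases upstream of the 3 genes and of Pcdhb8 are shown because all 4 share a run of 10 bases, given in capitals (RefSeq, GRCr8, plus strand).
Pcdhb5 (chr18:29302404-29302433): atgaacgcagGGTGGCGCTGcaggctaaga
Pcdhb6 (chr18:29320152-29320181): tagtacacacGGTGGCGCTGcagtctaagg
Pcdhb9 (chr18:29379248-29379277): aaagacacagGGTGGCGCTGcaggctaaga
Pcdhb8 (chr18:29339258-29339287): taggacacacGGTGGCGCTGcagtctaagg
GGTGGCGCTG, picked as the run of 10 bases held by most Pcdhb promoters and searched on both strands in the 250 bases before the start, was found in 14 of the 19 Pcdhb promoters in the table and in 63 of all 33469 promoters (0.188%). Since Pcdhb8 and other genes that did not pass the test hold it too, these letters do not set the 3 genes apart.

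Pcdhb6 had normalized counts of 37.5 to 116 (median 74.8) in HIP rats and 10.3 to 41.6 (median 21.4) in AKO rats, a log2 difference of 1.68 ± 0.27 (SE, n = 10 per group; limma, adjusted p = 0.00728). For Pcdhb5 the counts were 148.9 to 326 (median 246) in HIP rats and 115 to 190.4 (median 131.1) in AKO rats, with a log2 difference of 0.80 ± 0.13 (adjusted p = 0.00653). Pcdhb9 had 260.5 to 503 (median 370) in HIP rats and 159.1 to 285 (median 224) in AKO rats, with a log2 difference of 0.70 ± 0.12 (adjusted p = 0.0117). In each of the 3 genes, 9 of 10 HIP rats lay above every AKO rat, the lowest HIP rat was the same animal (10RT54), and the highest AKO rat was the same animal (7AKO28). WT medians were 54.2 for Pcdhb6, 232 for Pcdhb5 and 383 for Pcdhb9, on the side of the HIP rats.

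The other members of the cluster did not pass the test. Pcdhb8 averaged 106 ± 36.6 normalized counts in the HIP group and 163 ± 60.9 in the AKO group (SD, n = 10 per group), a log2 difference of −0.57 with an unadjusted p of 0.0241 and an adjusted p of 0.323 (limma). Pcdhb7, between Pcdhb6 and Pcdhb8, had a log2 difference of −0.08 (95% interval −0.45 to 0.29), and Pcdhb3, before Pcdhb5, one of −0.01 (−0.42 to 0.41). The median over the 14 genes was 0.01, against 0.00 over all tested genes. Estimated reads of the called members were not whole in some rats, such as 107.5 for Pcdhb6 in 10RT42 and 104.7 for Pcdhb5 in 4KAH35. Their values may hold shares of reads that match more than 1 gene. Whether such reads had a part in the differences was not tested.

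**Figure D2:**
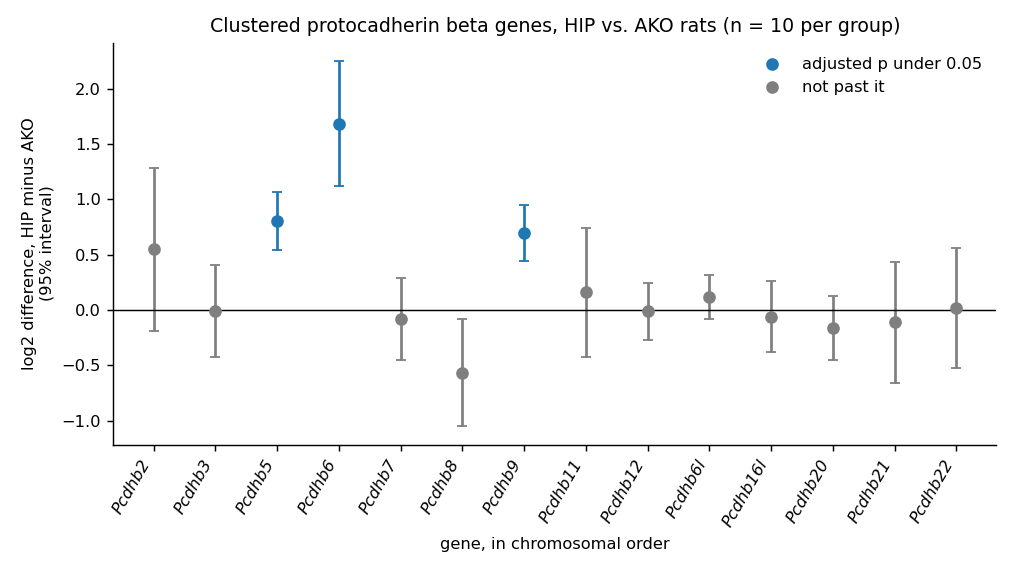
Log2 difference HIP minus AKO (y axis) with its 95% interval for the 14 tested protocadherin beta genes in their order on the chromosome (x axis), n = 10 rats per group. Pcdhb5 (0.80), Pcdhb6 (1.68) and Pcdhb9 (0.70) are above 0 with adjusted p under 0.05, and Pcdhb8 (−0.57) is the lowest of the others.

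Akr1b10 encodes an aldo-keto reductase, one of a family of enzymes that reduce aldehydes and sugars with NADPH. Its normalized counts were 121 to 274 (median 182) in HIP rats and 50.1 to 145.2 (median 70.6) in AKO rats, a log2 difference of 1.28 ± 0.18 (SE, n = 10 per group; limma, adjusted p = 0.00232). The AKO group overlapped the HIP group through 1 animal, 6KAH99 (145.2), and the other AKO rats had 84.3 or less. The WT median was 194. Estimated reads were not whole in some rats (60.59 in 4KAH27, 43.88 in 4KAH35), and whether reads shared with related genes had a part was not tested. Of 14 tested genes of the polyol pathway and aldo-keto reductases, Akr1b10 was the only one with an adjusted p under 0.05. It was also the only one with an unadjusted p under 0.05, against 12.7% of all tested genes. Aldose reductase itself (Akr1b1) averaged 929 normalized counts in HIP and 843 in AKO rats (log2 difference 0.16, unadjusted p = 0.189), and sorbitol dehydrogenase (Sord) had 499 and 458 (0.12, p = 0.206).

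Rpl39l, a close copy of ribosomal protein gene Rpl39 known mainly from testis, had 2.47 to 22.6 (median 7.60) normalized counts in HIP rats and 0 to 5.71 (median 0.686) in AKO rats. More than 3 estimated reads were found in 9 of 10 HIP rats, in 1 of 10 AKO rats and in 5 of 10 WT rats. The log2 difference was 2.39 ± 0.41 (SE, n = 10 per group; limma, adjusted p = 0.00969), and at these low counts it depended on the added constant, with 4.12 for a pseudocount of 0.1 and 1.20 for a pseudocount of 5. Reads of Rpl39 and Rpl39l could be exchanged in counting. Olr1694, which carries an olfactory receptor symbol, had 1226 to 1497 (median 1338) in HIP rats and 793 to 1434 (median 1004) in AKO rats, a log2 difference of 0.42 ± 0.08 (adjusted p = 0.0268). Its groups overlapped through AKO rat 4KAH27 (1434), and its adjusted p was 0.0519 without the 2 libraries and under 0.05 in 11 of 20 fits with 1 rat left out. Rpl39l, Olr1694, Akr1b10 and the 3 protocadherins make up the 6 called genes with a symbol that were higher in HIP rats.

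The next genes with a symbol by p-value, higher in HIP rats but past an adjusted p of 0.05, had adjusted p-values between 0.0573 and 0.0762 (limma). They include Ppip5k1, a kinase that makes inositol pyrophosphates, the zinc finger gene Zfp180, the keratin-like gene Krt222, the chloride/proton exchanger Clcn4 and the bradykinin receptor Bdkrb2. Bdkrb2 had 23.3 to 64.0 (median 33.0) normalized counts in HIP rats and 3.90 to 28.5 (median 15.1) in AKO rats, a log2 difference of 1.24 (adjusted p = 0.0762). For Clcn4 and Bdkrb2, 7 of 10 HIP rats lay above every AKO rat. Without the 2 libraries, Zfp180 (adjusted p = 0.028) and Krt222 (0.0427) passed, and Ppip5k1 (0.068), Clcn4 (0.0551) and Bdkrb2 (0.112) did not.

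Lcn2 encodes lipocalin 2, a secreted protein that binds iron-carrying siderophores and is a known product of reactive astrocytes. Lcn2 had 1.04 to 8.13 (median 5.10) normalized counts in HIP rats and 13.6 to 281 (median 23.4) in AKO rats. Every AKO rat was above every HIP rat. More than 3 estimated reads were found in 6 of 10 HIP rats and 10 of 10 AKO rats. The log2 difference was −2.56 ± 0.43 (SE, n = 10 per group; limma, adjusted p = 0.00874). The highest value was that of AKO rat 4KAH27 (281), and the other 9 AKO rats had 13.6 to 45.8. WT rats had 0 to 15.2 (median 6.10), so that the WT and AKO ranges met.

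Of 12 reactive astrocyte genes, 11 were tested, 1 (Lcn2) with an adjusted p under 0.05. At an unadjusted p under 0.05 (limma), 6 of the 11 were lower in HIP rats and 1 was higher, against 6.9% and 5.85% of all tested genes, and the median log2 difference was −0.61, against 0.00. Timp1, an inhibitor of matrix metalloproteinases, had 16.9 to 74.7 (median 34.7) in HIP rats and 42.03 to 885 (median 79.5) in AKO rats (log2 difference −1.35, unadjusted p = 0.00335, adjusted p = 0.198). Gfap, the intermediate filament of astrocytes, had 3885 to 14498 (median 8529) and 5456 to 14084 (median 12037), with a log2 difference of −0.49 and an adjusted p of 0.331. Steap4, a metalloreductase, was at 22.6 to 48.02 in HIP rats and 4.09 to 71.3 in AKO rats, and its log2 difference was 1.11 (unadjusted p = 0.00906, adjusted p = 0.249). The mean log2 level of the list was highest in AKO rat 4KAH27 (8.73), and the other AKO rats had 6.03 to 7.37. Without this rat, HIP rat 10RT48 and the 2 libraries, a choice made after the data were seen, the median was −0.71, with 7 of 11 lower and 1 higher at an unadjusted p under 0.05, against 8.52% and 6.33% of all genes in that fit.

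Igfbp6 encodes a secreted protein that binds insulin-like growth factors, with a preference for IGF-II. Its normalized counts were 127 to 320 (median 171) in HIP rats and 257 to 632 (median 433) in AKO rats, a log2 difference of −1.19 ± 0.18 (SE, n = 10 per group; limma, adjusted p = 0.00508). The HIP rat inside the AKO range was 10RT46 (320), the library with high Tph1. Without the 2 libraries, the log2 difference was −1.35 (adjusted p = 0.000949). WT rats had a median of 171. Of 19 tested genes of insulin and IGF signalling, Igfbp6 was the only one with an adjusted p under 0.05, and the median log2 difference was −0.06. At an unadjusted p under 0.05, 2 of the 19 were lower, Igfbp6 among them, and 1 was higher, against 6.9% and 5.85% of all tested genes. Irs1, an adaptor of the insulin receptor, had 289 to 841 (median 369) in HIP rats and 165 to 524 (median 281) in AKO rats (log2 difference 0.47, unadjusted p = 0.0181, adjusted p = 0.30). The insulin-responsive glucose transporter Slc2a4 had medians of 30.9 and 42.3 (log2 difference −0.47, unadjusted p = 0.0119, adjusted p = 0.268). The other binding proteins were closer, with log2 differences of −0.31 for Igfbp2, 0.13 for Igfbp3, −0.03 for Igfbp4, −0.25 for Igfbp5 and −0.17 for Igfbp7, none with an unadjusted p under 0.05.

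**Figure D3:**
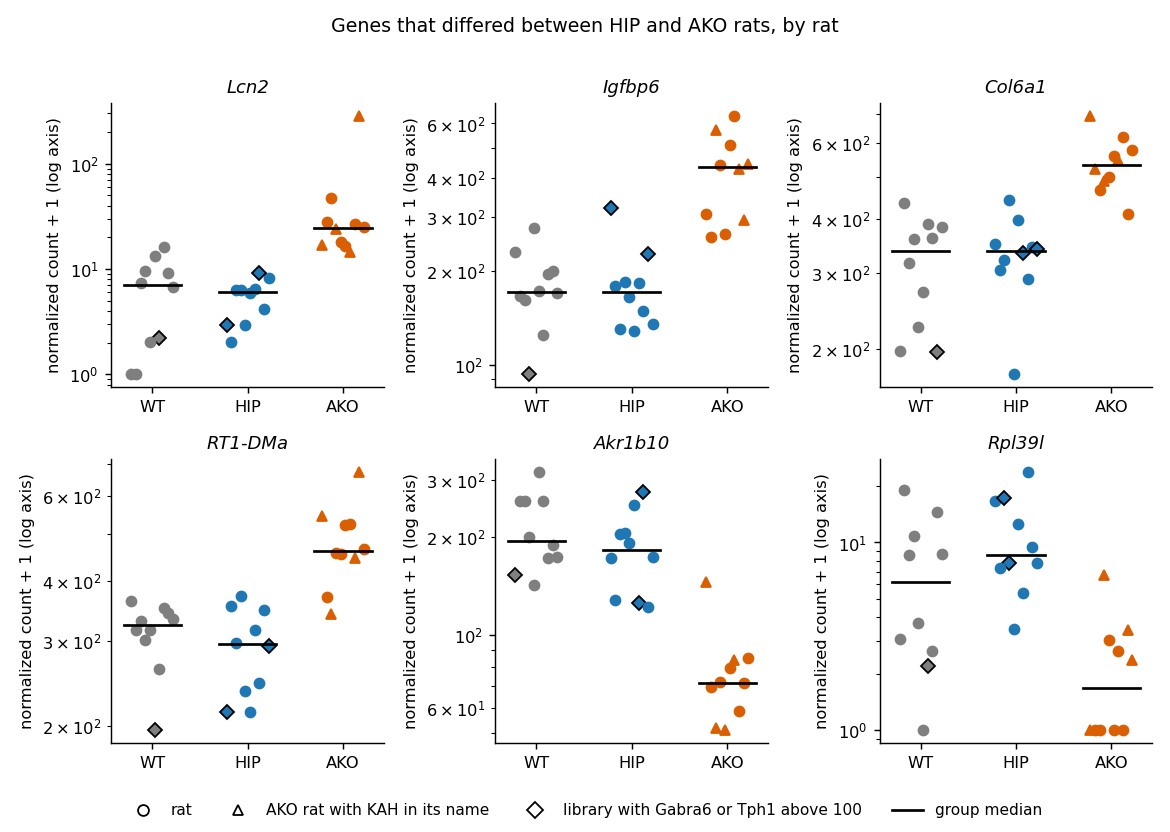
Normalized count + 1 (y axis, log scale) of 6 genes in each rat by group (x axis), with the group median as a line, AKO rats named KAH as triangles and libraries with Gabra6 or Tph1 above 100 as outlined diamonds. Lcn2, Igfbp6, Col6a1 and RT1-DMa are lower, and Akr1b10 and Rpl39l higher, in HIP than in AKO rats, and WT medians are near those of HIP rats.

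Col6a1 encodes the α1 chain of collagen VI, a matrix collagen that forms beaded filaments. Its normalized counts were 174 to 443 (median 337) in HIP rats and 411 to 692 (median 534) in AKO rats, a log2 difference of −0.73 ± 0.13 (SE, n = 10 per group; limma, adjusted p = 0.00969). The overlap came from HIP rat 10RT41 (443) and AKO rat 6AKO52 (411), and 9 of 10 AKO rats lay above every HIP rat. The next gene along the chromosome, Col6a2 (the α2 chain), had medians of 196 and 264, a log2 difference of −0.43, an unadjusted p of 0.00508 and an adjusted p of 0.222. The gene after it, Ftcd, an enzyme of histidine breakdown and folate metabolism, had 6.95 and 20.2 mean normalized counts in HIP and AKO rats, a log2 difference of −1.45 and an adjusted p of 0.0532, which was 0.0318 without the 2 libraries. Slc19a1 and Pcbp3, before Col6a1, had log2 differences of −0.08 and 0.06.

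Of 12 tested genes of meningeal fibroblasts and matrix, Col6a1 alone had an adjusted p under 0.05, and 3 of 12 were lower and 0 higher at an unadjusted p under 0.05 (limma), against 6.9% and 5.85% of all tested genes. The third was Ptgds, prostaglandin D synthase, which leptomeningeal cells also make, with medians of 13606 and 19177 (log2 difference −0.46, unadjusted p = 0.0206, adjusted p = 0.311). The fibrillar collagens Col1a1, Col1a2 and Col3a1 had log2 differences of −0.25, −0.15 and −0.26, each with an unadjusted p above 0.05. The median of the list was −0.21, with −0.56 against KAH-named rats and 0.03 against AKO-named rats, and the summed level of the 12 genes was 13467 to 29513 in HIP rats and 13498 to 46140.2 in AKO rats. Whether meningeal tissue had a part in the difference of Col6a1 was not tested.

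RT1-DMa encodes the α chain of the rat DM molecule, which helps to load peptides onto MHC class II. Its normalized counts were 212 to 372 (median 295) in HIP rats and 340.1 to 672 (median 461) in AKO rats, a log2 difference of −0.73 ± 0.13 (SE, n = 10 per group; limma, adjusted p = 0.00953). Of 10 AKO rats, 8 lay above every HIP rat. RT1-DMb, which encodes its partner chain, had medians of 181 and 292 (log2 difference −0.55, unadjusted p = 0.00252, adjusted p = 0.183). Of the 10 MHC class II genes tested, 4 were lower and 0 higher in HIP rats at an unadjusted p under 0.05, against 6.9% and 5.85% of all tested genes, and the median log2 difference was −0.90, against 0.00.

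The class II genes that present antigen differed widely between rats. Cd74, the invariant chain, had 127 to 8776 (median 255) normalized counts in HIP rats and 214 to 2294 (median 918) in AKO rats, with a log2 difference of −1.08 (unadjusted p = 0.0706, adjusted p = 0.434). The highest HIP value was that of rat 10RT48, which exceeded every AKO rat and set the HIP mean (1158) above the AKO mean (977) although the medians and the log2 difference were in the other direction. The mean log2 level of the 10 genes was 8.48 in this rat and 4.53 to 6.30 in the other HIP rats, and it was 4.62 to 7.51 in AKO rats, with the lowest in 4KAH27. Rats 10RT48 and 4KAH27, the highest HIP and the lowest AKO rat for this list, were left out together with the 2 libraries after the data were seen. In that fit, 9 of the 10 genes were lower in HIP rats at an unadjusted p under 0.05, against 8.52% of all genes, and the median was −1.56. Leaving out these 2 rats widens the difference by itself, so that fit is no separate test of it. The median against the 4 KAH-named rats was −0.24 and against the 6 AKO-named rats −1.46.

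Among 18 markers of microglia and brain macrophages, 10 were lower and 1 was higher in HIP rats at an unadjusted p under 0.05 (limma), against 6.9% and 5.85% of all tested genes, none with an adjusted p under 0.05, and the median log2 difference was −0.42. Cd163, a scavenger receptor of perivascular macrophages, had 17.6 to 52.7 (median 34.5) in HIP rats and 34.0 to 90.6 (median 63.8) in AKO rats, a log2 difference of −0.81 (unadjusted p = 0.000416, adjusted p = 0.0982). Itgam, the αM integrin of myeloid cells, had 104.6 to 374 (median 152.3) and 182 to 471 (median 271), a log2 difference of −0.85 (adjusted p = 0.107). C1qb, a subunit of complement C1q, had medians of 570.0 and 1049, with 2448 in the highest HIP rat (log2 difference −0.61, adjusted p = 0.286).

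The markers did not all have the same sign. Tmem119, a membrane protein of resident microglia, had 297 to 631 (median 371) in HIP rats and 96.0 to 548 (median 253) in AKO rats, a log2 difference of 0.52 (unadjusted p = 0.0262, adjusted p = 0.328), and P2ry12, the purinergic receptor of resident microglia, had one of 0.11. Of the 18 markers, 15 had a log2 difference below 0, against 8375 of the 17092 tested genes. Without the 2 libraries, 6 were lower and 1 higher at an unadjusted p under 0.05 (median −0.39), against 7.81% and 7.24% of all genes. When rats 4KAH27 and 10RT48 were left out as well, 14 were lower and 0 higher (median −0.54), against 8.52% and 6.33%. Rat 10RT48 was the highest HIP rat of this list, so leaving it out lowers the HIP level by itself. The summed level of the list was 6463 to 17966 in HIP rats, with a median of 7459.9, and 7157 to 11973 in AKO rats, with a median of 10733.

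Cmklr1, the receptor for the chemoattractant chemerin, had 40.0 to 80.5 (median 51.9) normalized counts in HIP rats and 52.1 to 177 (median 141.7) in AKO rats, a log2 difference of −1.06 ± 0.21 (SE, n = 10 per group; limma, adjusted p = 0.028). The AKO rats inside the HIP range were 4KAH27 (52.1) and 6KAH98 (66.8), and the mean was 87.1 in KAH-named and 156.2 in AKO-named rats. Its adjusted p was under 0.05 in 10 of 20 fits with 1 rat left out (largest 0.0734). Fcgr2b, the inhibitory receptor for IgG, had 34.4 to 126 (mean 62.79) in HIP rats and 78.9 to 488 (mean 170.0) in AKO rats, a log2 difference of −1.29 with an adjusted p of 0.0506. Ccr3, a chemokine receptor, had 1.05 to 5.81 (median 3.07) and 4.86 to 17.1 (median 9.86), a log2 difference of −1.27 with an adjusted p of 0.0532 in all 20 rats and 0.0307 without the 2 libraries.

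The remaining called genes with a symbol were lower in HIP rats. Muc1, a membrane mucin of epithelia, had 3.60 to 12.8 (median 6.62) normalized counts in HIP rats and 10.3 to 22.2 (median 16.7) in AKO rats, a log2 difference of −1.20 ± 0.21 (SE, n = 10 per group; limma, adjusted p = 0.00971). Gprc5a, an orphan receptor induced by retinoic acid, had 4.80 to 17.8 (median 13.8) and 15.7 to 85.8 (median 29.9), a log2 difference of −1.53 ± 0.31 (adjusted p = 0.035). For both genes, 9 of 10 AKO rats lay above every HIP rat. The adjusted p of Gprc5a was 0.0588 without the 2 libraries, and it was under 0.05 in 7 of 20 fits with 1 rat left out (largest 0.0786).

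Phgdh, the first enzyme of serine synthesis from glucose, which the brain uses mainly in astrocytes, had 729.9 to 1176 (median 869.9) in HIP rats and 894 to 1499 (median 1273) in AKO rats, a log2 difference of −0.47 ± 0.10 (SE, n = 10 per group; limma, adjusted p = 0.0428). The ubiquitin ligase Znrf1 had 392 to 740.2 (median 579) and 659 to 1097 (median 799), a log2 difference of −0.49 ± 0.10 (adjusted p = 0.0268). Clasrp, a serine- and arginine-rich protein that binds splicing kinases, had 318 to 465 (median 367) and 428 to 608 (median 497), a log2 difference of −0.45 ± 0.09 (adjusted p = 0.028). In these 3 genes the groups overlapped, and 7 or 8 of 10 AKO rats lay above every HIP rat. With 1 rat left out at a time, Phgdh kept an adjusted p under 0.05 in 6 of 20 fits (largest adjusted p 0.103), Znrf1 in 12 and Clasrp in 11.

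Of the 29 called genes, 13 have only an identifier or a clone name, 6 of them higher and 7 lower in HIP rats. The smallest p-value of all was that of ENSRNOG00000063986, with 7.76 to 44.9 (median 30.5) normalized counts in HIP rats and 1.09 to 9.60 (median 4.43) in AKO rats, a log2 difference of 2.42 ± 0.30 (SE, n = 10 per group; limma, adjusted p = 0.000625). Its lowest HIP rat was 10RT46, and without the 2 libraries the log2 difference was 2.69 (adjusted p = 3e-05). ENSRNOG00000064228 had 21.6 to 64.2 (median 26.8) in HIP rats, whereas 2 of 10 AKO rats had more than 3 estimated reads (median 2.42, highest 29.2 in 6KAH99), with a log2 difference of 3.36 ± 0.49 (adjusted p = 0.00239). ENSRNOG00000064257 was lower in HIP rats, with 259 to 691 (median 436) against 689.5 to 1575 (median 899) and a log2 difference of −1.12 ± 0.15 (adjusted p = 0.0018). ENSRNOG00000062944 was also lower, with 7.31 to 27.98 (median 17.9) against 23.4 to 225 (median 60.4) and a log2 difference of −1.80 ± 0.31 (adjusted p = 0.00947). Of the 13, 2 hold identical values in every rat and carry 1 measurement.

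Cytosolic ribosomal protein genes, which are among the most highly expressed genes of any cell, had small differences that were nearly all in the same direction. Of 95 tested genes whose symbols begin with Rpl or Rps, 45 were lower and 2 higher at an unadjusted p under 0.05 (limma), against 6.9% and 5.85% of all tested genes, and the 1 with an adjusted p under 0.05 was Rpl39l, which was higher. This rule also takes in kinases, binding proteins, pseudogenes and genes named as like another, Rpl39l among them. Over the 68 genes left when these were removed, a choice made after the data were seen, 37 were lower and 0 higher, against the same shares, and the median log2 difference was −0.21, with 67 of 68 below 0. Rps2 had 557 to 1016 (median 708) normalized counts in HIP rats and 824 to 1685 (median 1004) in AKO rats, a log2 difference of −0.56 (unadjusted p = 0.000491, adjusted p = 0.102). Rps12 had the one difference above 0 (0.01).

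The ranges of the ribosomal genes overlapped widely. The mean log2 level of the 68 genes was 9.89 to 10.43 in HIP rats and 10.00 to 10.87 in AKO rats, with the highest values in HIP rat 10RT46 and AKO rat 6KAH98. The median was −0.24 without the 2 libraries, −0.23 without rats 4KAH27 and 10RT48 as well, −0.33 against KAH-named rats and −0.14 against AKO-named rats. It stayed at −0.21 or −0.22 with quantile normalization and median-ratio rescaling. Nuclear-encoded genes of the respiratory chain, also abundant, had a median of −0.04. At an unadjusted p under 0.05 (limma), 3 of 86 were higher and 3 lower, against 5.85% and 6.9% of all tested genes.

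The genes of the amylin and CGRP family that were measured did not pass the test. Calcrl, the receptor component shared by CGRP and adrenomedullin, had 69.8 to 135.7 (median 104.9) normalized counts in HIP rats and 37.7 to 201 (median 124) in AKO rats, a log2 difference of −0.08 (95% interval −0.55 to 0.38; limma, adjusted p = 0.894). Ramp3, which turns the calcitonin receptor into an amylin receptor, had 163 to 275 (median 216) and 102 to 364 (median 179.8), a difference of 0.23 (−0.10 to 0.55; adjusted p = 0.556). Calca, which encodes calcitonin and CGRP, and Adm, which encodes adrenomedullin, had log2 differences of 0.12 (−0.68 to 0.91) and −0.37 (−0.88 to 0.13). The other 7 members of the list are not analysed here. Of the 30 tested genes that flank Iapp in the RefSeq gene order, 15 on each side, 0 had an adjusted p under 0.05 (limma). At an unadjusted p under 0.05 there were 0, against 12.7% of all tested genes, and the median of the 30 was 0.00.

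Amyloid and tau genes were tested because deposition of human amylin is studied together with β-amyloid in these rats. Of 21 genes, 0 had an adjusted p under 0.05 (limma). At an unadjusted p under 0.05, 1 was lower and 0 higher, against 6.9% and 5.85% of all tested genes. The 1 lower gene was Apoe, the lipid carrier of astrocytes, with 30774 to 54299.5 (median 39738) normalized counts in HIP rats and 39417 to 81606 (median 52597) in AKO rats, a log2 difference of −0.40 (unadjusted p = 0.0027, adjusted p = 0.19). The amyloid precursor protein gene App had 23219 to 33698 (median 28686) and 20969 to 31271 (median 27482), with a difference of 0.10. The β-secretase Bace1, the insulin-degrading enzyme Ide, the clearance receptor Lrp1 and the tau gene Mapt had log2 differences of 0.02, 0.08, −0.01 and −0.01.

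The groups were also compared with WT rats, and these comparisons share the HIP or the AKO rats with HIP vs. AKO, so they are given side by side only. In HIP vs. WT, 0 of 17085 genes had an adjusted p under 0.05 (limma), and 439 (2.57%) had an unadjusted p under 0.05. In AKO vs. WT, 17 of 17058 genes (0.0997%) had an adjusted p under 0.05, and 9.34% had an unadjusted p under 0.05. For all 29 genes called in HIP vs. AKO, the WT mean on the log2 scale was nearer to that of HIP rats than to that of AKO rats. Akr1b10 had a log2 difference of −0.20 in HIP vs. WT and −1.49 in AKO vs. WT (adjusted p = 0.999 and 0.000679), Igfbp6 had 0.01 and 1.20 (0.999 and 0.00795), and Col6a1 had 0.09 and 0.82 (0.999 and 0.0209). Lcn2 had 0.10 and 2.66 (adjusted p = 0.999 and 0.079). Rpl39l had 0.88 in HIP vs. WT and −1.51 in AKO vs. WT (0.999 and 0.367), the largest distance from WT on the HIP side among the 16 called genes with a symbol.

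**Figure D4:**
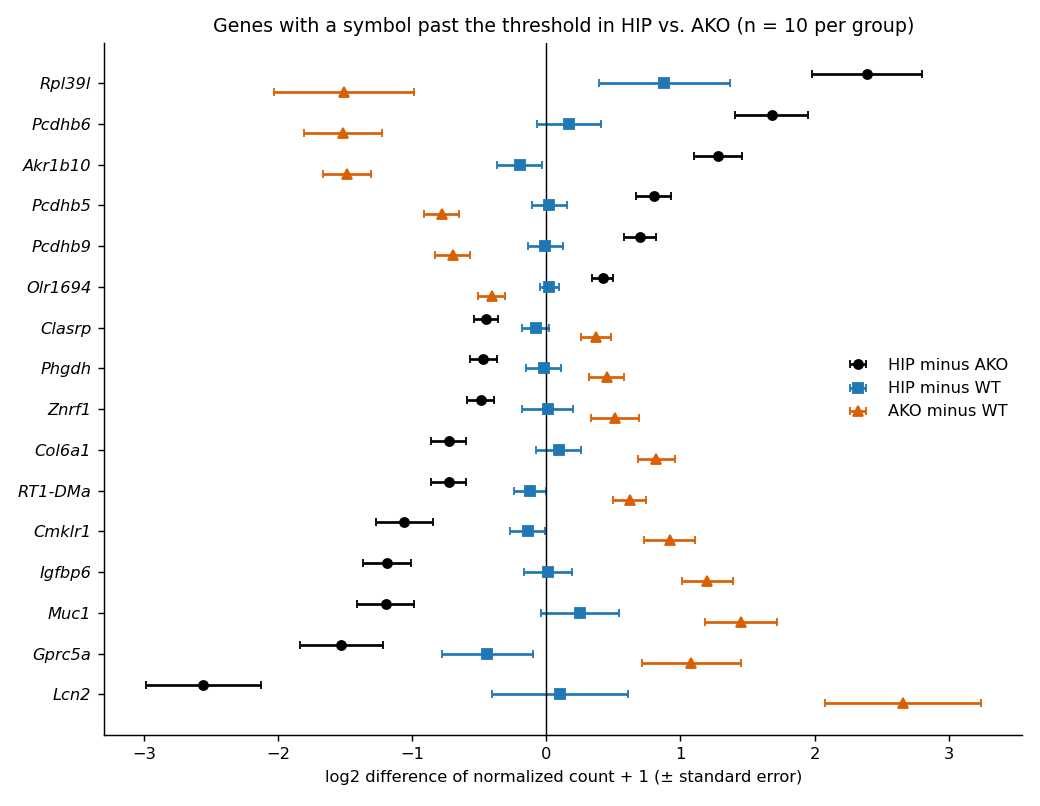
Log2 difference (x axis, ± SE) of the 16 genes with a symbol and an adjusted p under 0.05 in HIP vs. AKO (y axis), for HIP minus AKO (circles), HIP minus WT (squares) and AKO minus WT (triangles), n = 10 rats per group. The HIP minus WT values lie between −0.44 (Gprc5a) and 0.88 (Rpl39l), and the AKO minus WT values between −1.52 (Pcdhb6) and 2.66 (Lcn2).

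Among lists of other cell types and responses, no member passed an adjusted p of 0.05 in all 20 rats, and the counts below are of unadjusted p-values under 0.05 (limma), which 6.9% of all tested genes had in the lower and 5.85% in the higher direction. Of 13 endoplasmic reticulum chaperones and unfolded protein response genes, 3 were lower and 0 higher in HIP rats. Among them, Sdf2l1, a luminal chaperone subunit, had 81.8 to 184 (median 108) in HIP rats and 129 to 194 (median 168) in AKO rats (log2 difference −0.53, unadjusted p = 0.00122, adjusted p = 0.143), and its WT mean (155.8) was nearer to AKO (163) than to HIP rats (116). Of 14 markers of neocortical neurons, 3 were higher and 0 lower. They include Neurod6 and Tle4, with log2 differences of 0.32 and 0.17.

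Against the same shares, 3 of 15 blood-brain barrier genes were lower (Cav1, Esam and the glucose transporter Slc2a1) and 1 was higher. The latter was Abcg2, an efflux transporter of the capillary wall, with 157.8 to 263 (median 224) in HIP rats and 32.9 to 226 (median 153.7) in AKO rats (log2 difference 0.70, unadjusted p = 0.0101, adjusted p = 0.262). Of 11 glucocorticoid response genes, the metallothioneins Mt1 and Mt2A and the cell cycle inhibitor Cdkn1a were lower, and the receptors Nr3c1 and Nr3c2 were higher at an unadjusted p under 0.05. The highest AKO values of Mt1 (883), Mt2A (1780.1) and Cdkn1a (1114) stood far above their medians (86.1, 244 and 199), and the list mean of AKO rat 4KAH27 was 10.59 against 8.63 to 9.22 in the other AKO rats. The median of this list was −0.22 over all AKO rats, −0.53 against KAH-named and 0.00 against AKO-named rats.

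**Figure D5:**
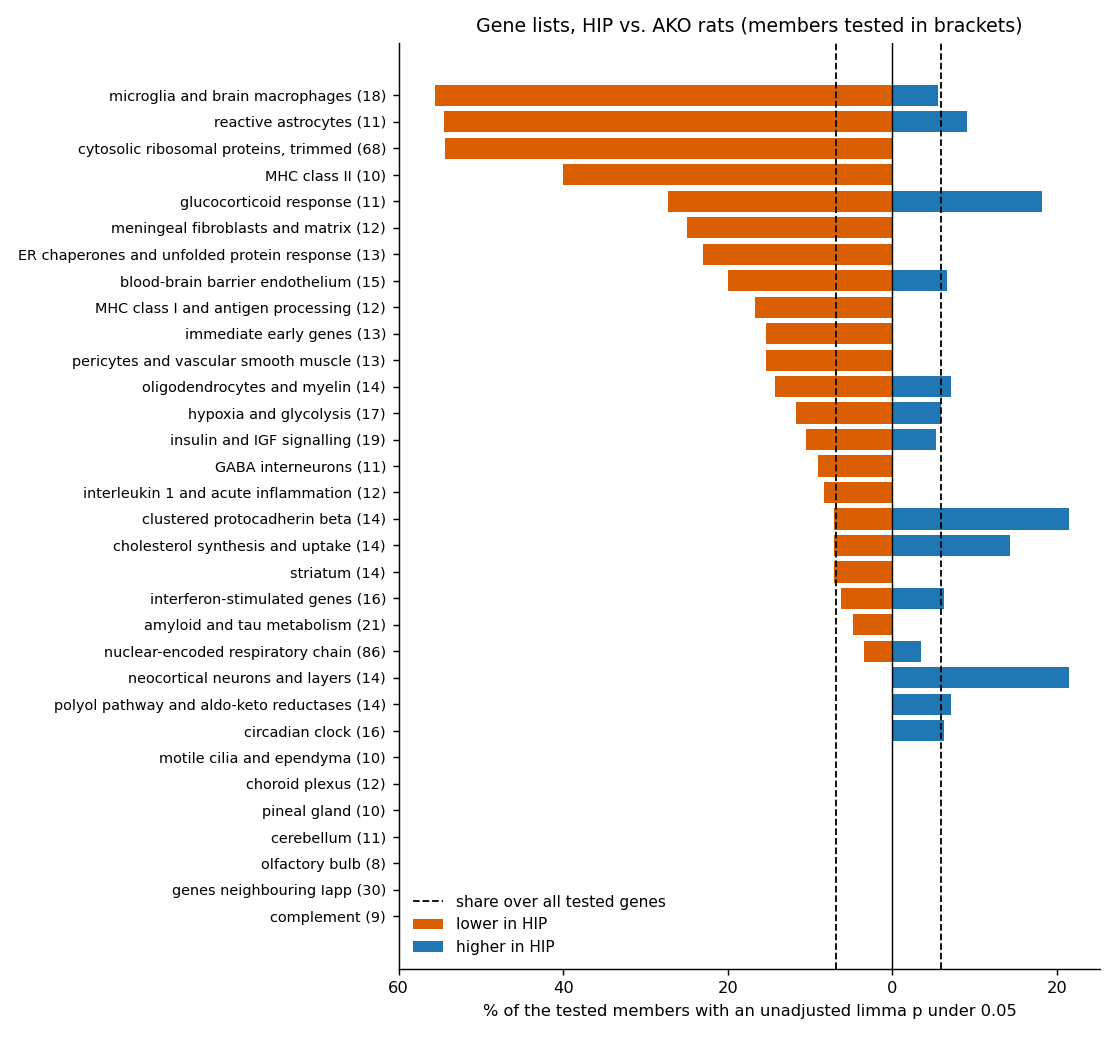
Share of the tested members of each gene list (y axis, members tested in brackets, lists with at least 8) with an unadjusted limma p under 0.05 (x axis, %), lower in HIP rats to the left and higher to the right, with the shares over all tested genes (6.9% lower, 5.85% higher) as dashed lines. Microglia, reactive astrocytes, ribosomal proteins and MHC class II have the 4 largest shares lower in HIP rats, and neocortical neurons and clustered protocadherin beta the largest shares higher. The lists were chosen with earlier results of these data known, so the shares are a description and no test.

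Without the 2 libraries, 17 genes had an adjusted p under 0.05 (limma) that did not in all 20 rats, and their directions were the same in both fits. Besides Zfp180, Krt222, Ccr3 and Ftcd they included Hspb1, a small heat shock protein, with mean normalized counts of 99.4 in the 10 HIP and 184 in the 10 AKO rats (log2 difference −1.07 without the 2 libraries, adjusted p = 0.0265). Tgm2, a transglutaminase that cross-links matrix proteins, had −0.86 (adjusted p = 0.0375), the actin-severing protein Dstn −0.34 (0.0396), and Olig1, a transcription factor of the oligodendrocyte lineage, −0.35 (0.0476). Vamp7, a vesicle fusion protein, was higher in HIP rats with 0.32 (adjusted p = 0.0307), and Pnma8c with 0.32 (0.0265). These genes were named after their values were seen. The median of the choroid plexus list was 0.20 in all 20 rats and −0.43 without the 2 libraries, that of the pineal gland list 0.55 and −0.32, and that of the cerebellum list 0.39 and −0.13. Those of microglia (−0.42 and −0.39), MHC class II (−0.90 and −0.98), reactive astrocytes (−0.61 and −0.78) and the 68 ribosomal proteins (−0.21 and −0.24) stayed on the same side of 0.

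HIP rats were compared with each set of AKO rats separately because AKO rats carry 2 kinds of name. Against the 4 KAH-named rats, 3 genes had an adjusted p under 0.05 (limma), and 0 of the 29 were among them. Against the 6 AKO-named rats there were 120, with 26 of the 29 among them. The sets differ in size, and KAH-named rats 6KAH98 (0.168) and 4KAH27 (0.237) had the lowest sample-quality weights. The 2 counts of genes therefore cannot be set against each other. The sign was the same in both comparisons for all 29 genes. These genes were called with both sets of AKO rats in the fit, so alike signs were largely fixed beforehand and are no test. Pcdhb6 had log2 differences of 1.68 against KAH-named and 1.69 against AKO-named rats, Akr1b10 had 1.24 and 1.31, and Col6a1 had −0.79 and −0.68. Igfbp6 had −1.28 and −1.13. Cmklr1 differed more, with −0.52 and −1.43, as did ENSRNOG00000066451 with 1.01 and 2.09.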

How the data were processed

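RNA was extracted from brain tissue labelled frontal cortex of 30 male rats (10 WT, 10 HIP and 10 AKO). The authors aligned the reads in Partek Flow to rn7 and counted them on genes of the Ensembl 105 annotation; the submitters' processing notes also name STAR 2.7.8a, Bowtie2 and DESeq2. What the authors deposited is DESeq2-normalized counts, which were treated as a signal because most are fractional. In each rat, 80.3% to 84.1% of values under 100 were whole multiples (tolerance 0.01) of 1 step, taken as the value of 1 read. The others were not, so no count model was fitted. For most low values the step between counts is 1 estimated read, and the counting error of a gene was not estimated. A gene with 3 or fewer estimated reads was taken as at the floor.

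HIP and AKO rats were compared with limma 3.58.1 in R 4.3.3 (lmFit, eBayes with trend, two-sided, no covariate) on log2(normalized count + 1), which understates differences of low genes. Genes had a mean of at least 1 in the rats compared, and p-values were adjusted by the Benjamini-Hochberg method over all tested genes. The fit was repeated without libraries with Gabra6 or Tph1 above 100. HIP vs. WT and AKO vs. WT were fitted the same way and are given for all rats of these groups, WT rat 10RT43 with high Gabra6 among them. In simulated data for HIP vs. AKO (17093 genes, 200 changed 2-fold), 166 changed genes were recovered in the right direction, with 2 unchanged genes called. The changed genes were drawn only from genes well above the filter on the mean, and no outlying rat was simulated. The recovery therefore does not apply to genes with low counts, such as Rpl39l.

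The groups, the gene lists and the rule for named genes were chosen with earlier results of these data known. Named were the 12 genes with a symbol and the smallest p in each direction, 2 genes with an identifier alone in each direction, list members with an adjusted p under 0.05, the amylin and CGRP family, Gabra6 and Tph1. Other list members were named from their list's values after these were seen. Alternatives changed the pseudocount (0.1 or 5) or the filter (none, or a minimum mean of 10), fitted all 30 rats together, used robust eBayes or weighted rats by quality, rescaled by quantiles or by median ratios, took the library number as a covariate, kept AKO rats of 1 kind of name, or left out 1 rat. The weights without the 2 libraries, leaving out rats 4KAH27 and 10RT48 too, and the shorter ribosomal list were added after the data were seen. Gene names and order, and promoter sequences, came from RefSeq tables of GRCr8, a build other than that of the files; of the tested genes, 13828 symbols were found there. Strand was not given in the sources used here, so overlapping genes cannot be told apart. Figures were drawn with matplotlib 3.10.9. Some genes that the naming rule selects are not reported here.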

Additional observations from a re-analysis of the deposited data

Results flagged for a closer look

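In 26 of 162 groups of 10 rats (named genes and list means in HIP and in AKO rats), 1 rat lay further from its neighbour, relative to the group's range on the log2 scale, than Dixon's 95% critical value for 10 samples. Chance alone would give about 1 in 20 groups. Tph1, Gabra6 and the pineal gland and cerebellum lists belong to the values by which 2 libraries were chosen to be left out, so they are not set against chance. Leaving these out, 22 groups had such a rat, where 1 in 20 would be 7.7, and the groups share genes and rats.

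HIP rat 10RT46 was highest for Tph1 (19081 normalized counts), for the list means (log2) of the pineal gland (8.56), the choroid plexus (8.59) and the hippocampus (8.40), and lowest for Zfp180 (3163), Znrf1 (392), ENSRNOG00000063986 (7.76) and the GABA interneuron list (9.34). HIP rat 12RT23 was highest for Gabra6 (1564) and the cerebellum list (9.83). HIP rat 10RT48 was highest for the microglia and brain macrophage list (8.92), the MHC class II list (8.48) and the complement list (9.15). HIP rat 10RT37 was lowest for Col6a1 (174).

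AKO rat 4KAH27 was highest for Lcn2 (281), Fcgr2b (488), Znrf1 (1097) and the lists of reactive astrocytes (8.73), the glucocorticoid response (10.59) and interleukin 1 and acute inflammation (5.63). AKO rat 6KAH98 was highest for the nuclear-encoded respiratory chain (10.71) and ribosomal protein (10.87) lists and lowest for Clcn4 (1049.7). AKO rat 6KAH99 was highest for Akr1b10 (145.2), 7AKO30 for Krt222 (343) and 7AKO19 for the choroid plexus list (6.54).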

How the results depend on the processing

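The number of genes with an adjusted p under 0.05 in HIP vs. AKO was 29, and it was 28 to 31 with other pseudocounts, filters, robust eBayes, quantile normalization, median-ratio rescaling or the library number. It was 44 without the libraries with Gabra6 or Tph1 above 100, 56 with all 30 rats in one fit, 1143 with sample-quality weights, 3 against KAH-named and 120 against AKO-named rats. Of the settings added after the data were seen, weights without the 2 libraries gave 1136, and leaving out 4KAH27 and 10RT48 as well gave 32 higher and 114 lower genes (12 and 17 in all rats). With 1 rat left out it was 17 to 70. It rose over 1.5-fold without HIP rat 10RT46 (70) or AKO rat 4KAH27 (58), and fell to 17 to 19 without HIP rats 10RT41, 10RT42, 10RT52, 10RT53 or 12RT23 or AKO rats 6AKO52, 7AKO19 or 7AKO28; the cause was not tested. Of the 29 genes, 17 passed with each rat left out, 0 passed under every alternative and 0 changed sign. Weights were lowest for 6KAH98 (0.168), 4KAH27 (0.237) and 10RT46 (0.325). Without the 2 libraries, pseudocounts of 0.1 and 5 and a mean of at least 10 gave 41, 49 and 43. Signs reversed, none with an adjusted p under 0.05, for Calcrl (0.09 against KAH-named rats), Calca (−0.10 without the 2 libraries, −0.10 with weights, −0.25 with both, −0.12 without 4 rats) and Tph1 (−0.37, −0.00, −0.45 and −0.50), and with 1 rat left out for Calcrl (−0.25 to 0.02), Calca (−0.00 to 0.35) and Tph1 (−0.21 to 1.26). Depth limits genes near 3 estimated reads, such as Rpl39l in AKO rats. No paired analysis was possible because replicate numbers were given in accession order and pair no rats.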
